A study of Mus musculus with 11 samples.

Results

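Zscan4b, Zscan4c, Zscan4d, Zscan4f, Tcstv1, Tcstv3 and Zfp352 are 7 mouse genes best known for their burst of transcription in the 2-cell embryo. They were taken by symbol from RNA-seq libraries of embryonic stem cells (ESCs), and all 7 symbols were listed among the 23284 genes given for every library. The libraries came from wild-type (WT) ESCs and from ESCs in which Tet1, Tet2 and Tet3 had been knocked out together (TKO), a line made for earlier work. The labels name no clone, so genotype cannot be told apart from other differences between the WT and TKO cells. All cells were grown on gelatin with serum and leukemia inhibitory factor. Ribodepleted total RNA was sequenced from untreated WT and TKO cells (0 h) and from cells exposed to α-amanitin (10 µg/ml), which blocks RNA polymerase II, for 4 h. Each of these groups has 2 libraries. Polyadenylated (polyA) RNA was sequenced from WT cells in 3 further libraries. The study describes the α-amanitin experiment as done in biological duplicate. The labels do not say whether replicate libraries came from separate cultures, and p-values measure only the spread between these libraries.

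Zscan4 genes encode zinc-finger proteins with a SCAN domain. In ESC cultures they are switched on from time to time in a small share of cells that take on features of the 2-cell embryo, and they are known for their role in telomere maintenance. The Tcstv genes are further 2-cell genes for which a role in telomere length has been described, and Zfp352 is a zinc-finger gene widely used as a marker of the same state. Tet enzymes oxidise 5-methylcytosine. Because a bulk library mixes all cells of a culture, fewer cells that transcribe a gene and less RNA of it per cell cannot be told apart.

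The upstream sequences of the Zscan4 genes and of Zfp352 are shown first. How far reads can separate the Zscan4 copies depends on their exons, which are compared further below. The 250 bases before the transcript start are given 5′ to 3′ from RefSeq on GRCm38.p6, with CG dinucleotides, the main site of DNA methylation, in capitals. They lie at chr7:10905051-10905300 for Zscan4b (minus strand), chr7:11005495-11005744 for Zscan4c (plus strand), chr7:11166149-11166398 for Zscan4d (minus strand), chr7:11397665-11397914 for Zscan4f (plus strand) and chr4:90218570-90218819 for Zfp352 (plus strand).
Zscan4b: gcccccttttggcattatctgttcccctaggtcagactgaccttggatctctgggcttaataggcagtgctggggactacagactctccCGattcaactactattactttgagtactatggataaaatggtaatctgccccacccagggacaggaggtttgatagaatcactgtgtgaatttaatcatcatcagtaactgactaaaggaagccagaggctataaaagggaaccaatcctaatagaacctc
Zscan4c: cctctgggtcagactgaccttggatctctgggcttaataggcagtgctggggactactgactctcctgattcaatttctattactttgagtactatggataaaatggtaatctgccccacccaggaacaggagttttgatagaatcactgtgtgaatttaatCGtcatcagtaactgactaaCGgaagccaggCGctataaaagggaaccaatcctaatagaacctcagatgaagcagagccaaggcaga
Zscan4d: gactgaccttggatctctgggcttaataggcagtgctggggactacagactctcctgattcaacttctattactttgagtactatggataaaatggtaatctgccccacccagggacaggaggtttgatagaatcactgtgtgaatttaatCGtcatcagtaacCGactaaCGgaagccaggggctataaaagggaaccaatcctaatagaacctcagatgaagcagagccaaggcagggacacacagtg
Zscan4f: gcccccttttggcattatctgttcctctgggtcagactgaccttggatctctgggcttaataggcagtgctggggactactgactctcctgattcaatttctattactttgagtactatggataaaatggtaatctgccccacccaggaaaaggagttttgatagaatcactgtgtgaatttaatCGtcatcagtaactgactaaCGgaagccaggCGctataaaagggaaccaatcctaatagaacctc
Zfp352: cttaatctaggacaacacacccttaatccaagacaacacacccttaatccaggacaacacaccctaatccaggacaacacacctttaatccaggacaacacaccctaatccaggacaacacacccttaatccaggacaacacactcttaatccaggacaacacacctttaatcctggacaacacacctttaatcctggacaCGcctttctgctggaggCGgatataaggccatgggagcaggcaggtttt

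In global alignments with free end gaps, the upstream windows of Zscan4c and Zscan4f were identical at 226 of 227 aligned bases. The other pairs of Zscan4 windows were between 94.7% and 97.2% identical. Zscan4c, Zscan4d and Zscan4f each held 3 CG in 250 bases, Zscan4b held 1 and Zfp352 held 2. The median over 32851 RefSeq promoter windows of the same length was 6 CG, and 37.8% of those windows held 3 CG or fewer. The letters TATAAA, searched on both strands, were present in all 4 Zscan4 windows, against 12.4% of all windows, and were not in the Zfp352 window. No upstream sequence is given for Tcstv1 and Tcstv3.

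In the NCBIM37 (mm9) annotation, the build the study used, the Zscan4 members lie in 1 stretch of chromosome 7, at chr7:11486098-11490399 (Zscan4b, minus strand), chr7:11591071-11595896 (Zscan4c, plus strand), chr7:11746992-11751497 (Zscan4d, minus strand) and chr7:11983264-11988090 (Zscan4f, plus strand). Zfp352 is at chr4:89885511-89892393 (plus strand). The coding sequences of the 4 members were between 96.6% and 99.6% identical. Exonic stretches of 150 bases, the labelled read length, were found only once in the part of chromosome 7 around the cluster, on either strand, for 88.1% of positions in Zscan4d, 42.7% in Zscan4c, 24.6% in Zscan4b and 6.04% in Zscan4f. Of the 4 copies, Zscan4d can therefore be told from the others over most of its length and Zscan4f over little of it. How the counting treated reads that match several copies is not given in the sources used here, so values of single copies are uncertain. The sum over the copies is given beside them. The files list 2 more copies, Zscan4a and Zscan4e, which are pseudogenes in RefSeq.

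Values are TPM, a length-corrected share of a library's reads scaled to a common total, so levels can be compared between genes. TPM values sit on steps of whole reads, and reads were recovered from them. Libraries held 25507874 to 29781366 reads after ribodepletion and 72639837 to 82129168 after polyA selection. In the ribodepleted libraries 1 read was worth between 0.0293 TPM (Zscan4c) and 0.0907 TPM (Tcstv1). Tet1 was at 123 to 148 TPM in the WT libraries at 0 h and at 32.3 to 32.8 TPM in TKO, and Tet2 was at 47.7 to 57.2 TPM against 7.79 to 8.32 TPM. Tet3 was near 1.5 TPM in both and did not separate them. All 8 ESC markers examined, among them Pou5f1 and Nanog, were at 17.6 TPM or more in every library. At 0 h 3 of them (Zfp42, Esrrb and Klf4) were called lower in TKO, beside 5.45% of all 12467 genes tested. The 16 markers of other cell types summed to 61.2 to 83.5 TPM in the WT ribodepleted libraries and 47.3 to 58.1 TPM in TKO. Smooth muscle actin (Acta2) was the highest in both, and was at 41.8 to 55.9 TPM in WT and 24.2 to 26.3 TPM in TKO at 0 h. Without it the order of the sums turned, since the other 15 markers summed to 19.4 to 20.3 TPM in WT and to 24.3 to 25.1 TPM in TKO at 0 h. Col1a2 and Fgf5 were called higher in TKO, beside 10.4% of all genes tested. Lum, a fibroblast marker, had no read in WT at 0 h and 9 reads in TKO. Not all of the 15 moved that way. Postn, Gata4, Gata6, Sox17, T and Sox1 were each lower in both untreated TKO libraries than in either untreated WT library. Postn, for instance, fell from 95 reads over the WT pair to 27 over the TKO pair. Here and below, such separation of libraries is a description, given without the share of all genes that show it. The part of these marker differences in the results below was not tested.

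At 0 h, 6 of the 7 genes were near or at 0 in WT and well above it in TKO, and Zscan4b was near 0 in both. The plot of TPM by library shows this for each gene.

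**Figure D1:**
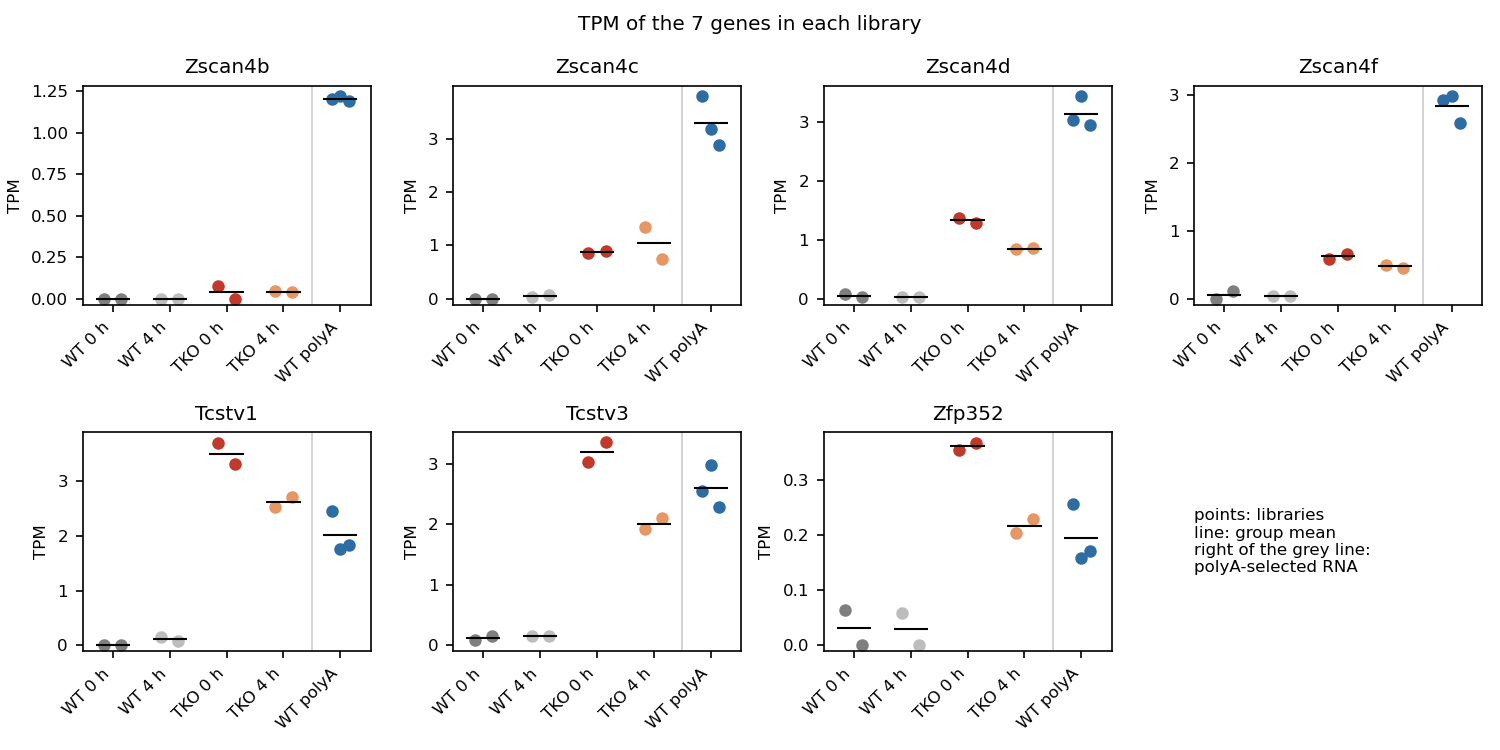
TPM (y axis) of each of the 7 genes in each library, by group (x axis), with points for libraries and a line for the group mean. Apart from Zscan4b, each gene lies above all 4 WT ribodepleted libraries in all 4 TKO libraries. The share of all genes that do so is not given. Each of the 7 is also present in the WT polyA libraries, where Zscan4b is near 1.2 TPM.

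Tcstv1 was at 3.71 and 3.31 TPM in the TKO libraries at 0 h (47 and 37 reads) and had no read in either WT library. Tcstv3 was at 3.04 and 3.36 TPM in TKO (40 and 39 reads) and at 0.0814 and 0.158 TPM in WT (1 and 2 reads). Both Tcstv copies were thus close to each other in level, and the genotypes did not overlap. As a ratio of summed reads scaled for depth, Tcstv1 was at least 26.4-fold higher in TKO, counted against a floor of 3 reads over both WT libraries. For Tcstv3 the ratio was 24.8 (95% exact interval 8.18 to 123). These intervals and floors cover counting error only.

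Among the Zscan4 copies, Zscan4d was the highest in TKO, at 1.37 and 1.29 TPM (41 and 34 reads), and was at 0.0718 and 0.0348 TPM in WT (2 reads and 1 read). Zscan4c followed at 0.85 and 0.897 TPM in TKO (29 and 27 reads), with no read in WT. Zscan4f was at 0.583 and 0.661 TPM in TKO (16 reads in each) and at 0 and 0.114 TPM in WT (0 and 3 reads). As a description, both TKO libraries lay above both WT libraries in all of these copies. The read ratio was 23.5 for Zscan4d (95% exact interval 7.75 to 117), at least 17.6-fold for Zscan4c and 10.0 for Zscan4f (3.14 to 51.3). Zscan4b had 2 reads and 0 reads in TKO and none in WT, so its level was under the floor in both genotypes and no fold is given.

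Zfp352 was the lowest of the genes seen in TKO, at 0.354 and 0.368 TPM (12 and 11 reads) against 0.0632 and 0 TPM in WT (2 reads and 0). Its read ratio was 10.8 (95% exact interval 2.68 to 94.8). It lies on another chromosome than the Zscan4 cluster.

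Summed over the 4 Zscan4 members, TKO stood at 2.86 ± 0.0238 TPM and WT at 0.11 ± 0.0541 TPM (SD, n = 2 libraries each). The Tcstv sum was 6.71 ± 0.0569 TPM in TKO and 0.12 ± 0.054 TPM in WT (SD, n = 2). In the limma fit on log2(scaled TPM + 1), which covered the 8 ribodepleted libraries, the Zscan4 sum was higher in TKO by 1.72 on the log2 scale (SE 0.116, adjusted p = 7.07e-06). The Tcstv sum was higher by 2.69 (SE 0.105, adjusted p = 4.09e-07). Both sums passed the filter of this fit (described below) only through TKO, so they had to differ. With every gene above 0 in at least 2 libraries kept, a filter both sums pass in WT alone, the changes were the same and the adjusted p-values were 4.43e-05 and 1.32e-05 (limma). The log2(scaled TPM + 1) scale understates changes of low genes. The read ratios were 25.9 for the Zscan4 sum (95% exact interval 11.7 to 71.6) and 51.2 for the Tcstv sum (17.2 to 251).

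Only Tcstv1 and Tcstv3 passed the filter of that fit, a mean scaled TPM above 1, and they passed through their TKO libraries alone, so they had to differ. Tcstv1 was called higher with a log2 change of 2.09 (SE 0.113, adjusted p = 2.52e-06, limma). Tcstv3 was called higher with 1.82 (SE 0.112, adjusted p = 4.41e-06). Over all 12467 genes tested, 10.4% were called higher in TKO and 5.45% lower, at an adjusted p under 0.05 and a change over 1.5-fold. When every gene above 0 in at least 2 libraries was kept, all 7 were tested, and Tcstv1, Tcstv3, Zscan4c and Zscan4d were called higher, beside 7.94% of 18530 genes called higher and 3.88% lower. Zscan4f (log2 change 0.58, adjusted p = 0.000516) and Zfp352 (0.37, adjusted p = 0.00144) stayed under 1.5-fold on that scale. Zscan4b was at 0.05 (adjusted p = 0.367).

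On the scale of recovered reads the offset of 1 TPM plays no part. With limma voom on genes with at least 10 reads, 6 of the 7 genes were tested and called higher in TKO at 0 h, beside 15.2% of 16774 genes. Zscan4b had too few reads to enter. The log2 changes ran from 3.34 for Zfp352 (SE 0.835, adjusted p = 0.00186) to 6.32 for Tcstv1 (SE 0.744, adjusted p = 1.91e-07), the latter against WT libraries at 0 and therefore set in part by the offset voom adds. This filter, too, was passed mainly through TKO. A pseudocount of 5 TPM took the Zscan4 sum to 0.58, just under 1.5-fold.

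**Figure D2:**
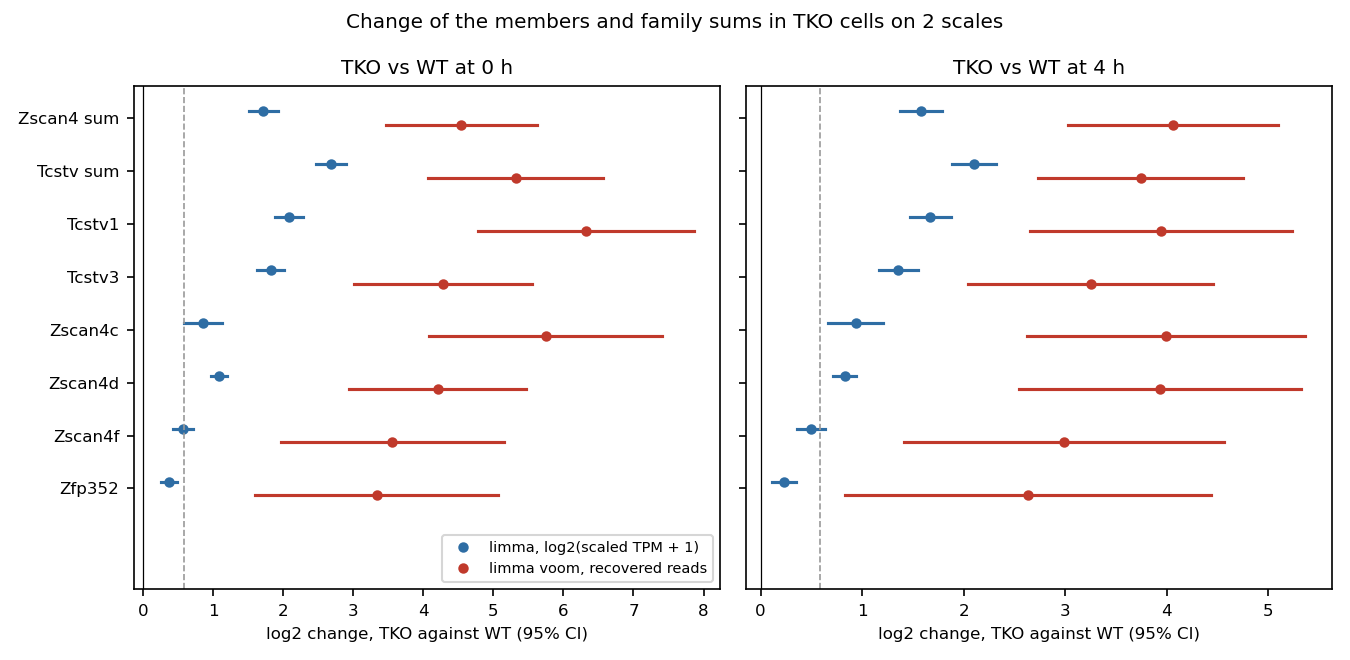
Log2 change in TKO against WT (x axis, with 95% confidence intervals) at 0 h and 4 h for the family sums and 6 of the genes, in limma on log2(scaled TPM + 1) for genes above 0 in at least 2 libraries (blue) and in limma voom on recovered reads (red). The dashed line marks 1.5-fold. At 0 h the Zscan4 sum lies at 1.72 on the first scale and 4.54 on the second, and the Tcstv sum at 2.69 and 5.32.

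After 4 h in α-amanitin the genotypes differed in the same genes. Tcstv1 was at 2.54 and 2.72 TPM in TKO (28 and 31 reads) and at 0.158 and 0.0815 TPM in WT (2 reads and 1 read). Tcstv3 was at 1.92 and 2.11 TPM in TKO (22 and 25 reads) and at 0.152 and 0.157 TPM in WT (2 reads in each). Both TKO libraries exceeded both WT libraries for each of them, with read ratios of 19.6 (95% exact interval 6.37 to 97.5) and 11.7 (4.27 to 44.7).

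The TKO libraries at 4 h disagreed most on Zscan4c, at 1.35 and 0.749 TPM (40 and 23 reads), against 0.0294 and 0.0605 TPM in WT. Zscan4d was at 0.845 and 0.855 TPM in TKO and at 0.0335 and 0.0345 TPM in WT. Zscan4f was at 0.502 and 0.445 TPM in TKO and at 0.0365 and 0.0376 TPM in WT. Each of these 3 copies had no more than 2 reads in any WT library at 4 h. Zfp352 was at 0.203 and 0.229 TPM in TKO and at 0.0591 and 0 TPM in WT. Zscan4b had 1 read in each TKO library and none in WT.

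The Zscan4 sum at 4 h was higher in TKO by 1.58 on the log2(scaled TPM + 1) scale (SE 0.116, adjusted p = 1.01e-05, limma), with a read ratio of 18.9 (95% exact interval 8.92 to 47.9). The Tcstv sum was higher by 2.10 (SE 0.105, adjusted p = 1.48e-06), with a read ratio of 15.1 (7.06 to 38.4). Here too the sums entered the fit only through TKO, and with every gene above 0 in at least 2 libraries the adjusted p-values were 5.8e-05 and 2.9e-05 (limma). Tcstv1 and Tcstv3, the 2 members that passed the filter, were called higher, beside 11% of all tested genes called higher and 5.83% lower. With every gene above 0 in at least 2 libraries 4 members were called higher, beside 8.25% of genes called higher and 4.16% lower. With voom 6 of 6 members tested were called higher, beside 16.2% of genes called higher and 6.50% lower. With a pseudocount of 5 TPM, neither Tcstv gene nor the Zscan4 sum passed 1.5-fold at 4 h.

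To ask whether these transcripts fell once transcription was blocked, 4 h was compared with 0 h within each genotype. TPM are relative within a library, so a loss shared by all transcripts cannot be seen. In TKO, after scaling, both libraries at 4 h lay below both at 0 h for Tcstv1, Tcstv3, Zscan4d, Zscan4f and Zfp352. Neither Tcstv gene, the members that passed the filter, was called. With every gene above 0 in at least 2 libraries all 7 were tested and none was called. In that fit 0.0162% of 18530 genes were called lower and 0.0054% higher. The Tcstv sum went from 6.75 and 6.67 TPM to 4.46 and 4.83 TPM. Its log2 change was -0.37 (SE 0.105, unadjusted p = 0.00734, adjusted p = 0.126, limma), and its read ratio was 0.739 (95% exact interval 0.573 to 0.95). Tcstv3 had a log2 change of -0.40 (unadjusted p = 0.0063, adjusted p = 0.122). The Zscan4 sum went from 2.88 and 2.85 TPM to 2.74 and 2.09 TPM, with a log2 change of -0.11 (95% CI -0.38 to 0.15, adjusted p = 0.554) and groups that overlapped after scaling. Copies moved unequally in value, since Zscan4d had a read ratio of 0.682 (95% exact interval 0.461 to 1.0) and Zscan4c one of 1.28 (0.878 to 1.87). The read ratio was 0.817 for Zscan4f (0.457 to 1.44) and 0.643 for Zfp352 (0.299 to 1.32). With every gene above 0 in at least 2 libraries, Zscan4d had a log2 change of -0.28 (unadjusted p = 0.000938, adjusted p = 0.175, limma). Over the genes that passed the filter, limma called 0.160% lower in TKO at 4 h and 0 higher. At an unadjusted p under 0.05, 1713 of them were higher, and voom on at least 10 reads called 13 higher. The count of 20 lower genes ran from 0, without replicate 2 of TKO at 0 h, to 130, without replicate 1 of TKO at 4 h, where 13 were called higher. Leaving out any of the other 6 libraries gave 1 to 7 lower.

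In WT the 4 h and 0 h values both rest on a handful of reads. The Tcstv sum had 3 reads over both libraries at 0 h and 7 at 4 h, with a log2 change of 0.22 (SE 0.105, adjusted p = 0.126, limma). The Zscan4 sum had 6 reads at 0 h and 7 at 4 h, with a log2 change of 0.02 (adjusted p = 0.884). Neither Tcstv gene, the members tested, was called, beside 2.01% of all tested genes called lower and 0.0882% higher. The 251 genes called lower became 137 without replicate 1 of WT at 4 h. Without the fold threshold the balance turned, with 2735 genes called higher and 1964 lower. With levels this close to 0, a fall of these transcripts in WT was not detectable at this depth.

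The change with time did not differ between the genotypes at the threshold used. For the Tcstv sum the interaction was -0.59 on the log2 scale (95% CI -0.92 to -0.25, unadjusted p = 0.00362, adjusted p = 0.651, limma). The WT sum was near 0 at both times (3 and 7 reads), so it could hardly fall on this scale. A fall in TKO would by itself give a negative interaction, so no difference in decay is read from it. For the Zscan4 sum the interaction was -0.14 (95% CI -0.51 to 0.23, adjusted p = 0.805). For the interaction limma called 0 of 12467 genes, with 940 at an unadjusted p under 0.05, and voom on at least 10 reads also called 0. These comparisons share libraries with those of TKO against WT and are not independent of them.

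WT cells were not without these transcripts when polyA RNA was sequenced. All 7 genes were present in all 3 polyA libraries, and the Zscan4 sum was higher there than in any ribodepleted library. Zscan4c was at 3.8, 3.19 and 2.88 TPM, Zscan4d at 3.04, 3.44 and 2.95 TPM, and Zscan4f at 2.92, 2.98 and 2.59 TPM. Zscan4b, which had at most 2 reads in any ribodepleted library, had 76 to 86 reads per polyA library and was at 1.2, 1.22 and 1.19 TPM. The polyA libraries were the deeper ones, which TPM takes into account.

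Tcstv1 was at 2.46, 1.76 and 1.83 TPM in the polyA libraries and Tcstv3 at 2.56, 2.98 and 2.29 TPM. Zfp352 was at 0.257, 0.158 and 0.171 TPM. Unlike the Zscan4 copies, these 3 genes were lower in every polyA library than in either TKO library at 0 h.

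In a fit of the 3 polyA and the 2 untreated WT ribodepleted libraries, the Zscan4 sum was higher in polyA by 3.32 on the log2(scaled TPM + 1) scale (SE 0.0784, adjusted p = 4.49e-09, limma), with a read ratio of 92.4 (95% exact interval 42.4 to 252). The Tcstv sum was higher by 2.28 (SE 0.0917, adjusted p = 8.21e-08), with a read ratio of 35.0 (11.9 to 170). The sums and the 5 members that passed the filter did so through the polyA libraries, so they had to differ. The 5 members were all called higher, beside 18.7% of 12478 genes called higher and 16.4% lower. Zscan4b, which did not pass, was at least 18.6-fold higher by reads against the floor. RNA selection and depth differ together between these libraries and cannot be told apart. The labels do not say whether culture or sequencing run differed too.

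Across the 5 groups the order of the Zscan4 sum was WT polyA (10.5 ± 0.751 TPM, n = 3), TKO 0 h (2.86 ± 0.0238 TPM), TKO 4 h (2.41 ± 0.456 TPM), WT 4 h (0.116 ± 0.0235 TPM) and WT 0 h (0.11 ± 0.0541 TPM; SD, n = 2 each). TKO 0 h and TKO 4 h did not differ beyond their spread, nor did WT 4 h and WT 0 h. The order of the Tcstv sum was TKO 0 h (6.71 ± 0.0569 TPM), TKO 4 h (4.64 ± 0.264 TPM), WT polyA (4.62 ± 0.459 TPM, n = 3), WT 4 h (0.274 ± 0.0511 TPM) and WT 0 h (0.12 ± 0.054 TPM). TKO 4 h and WT polyA overlapped.

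**Figure D3:**
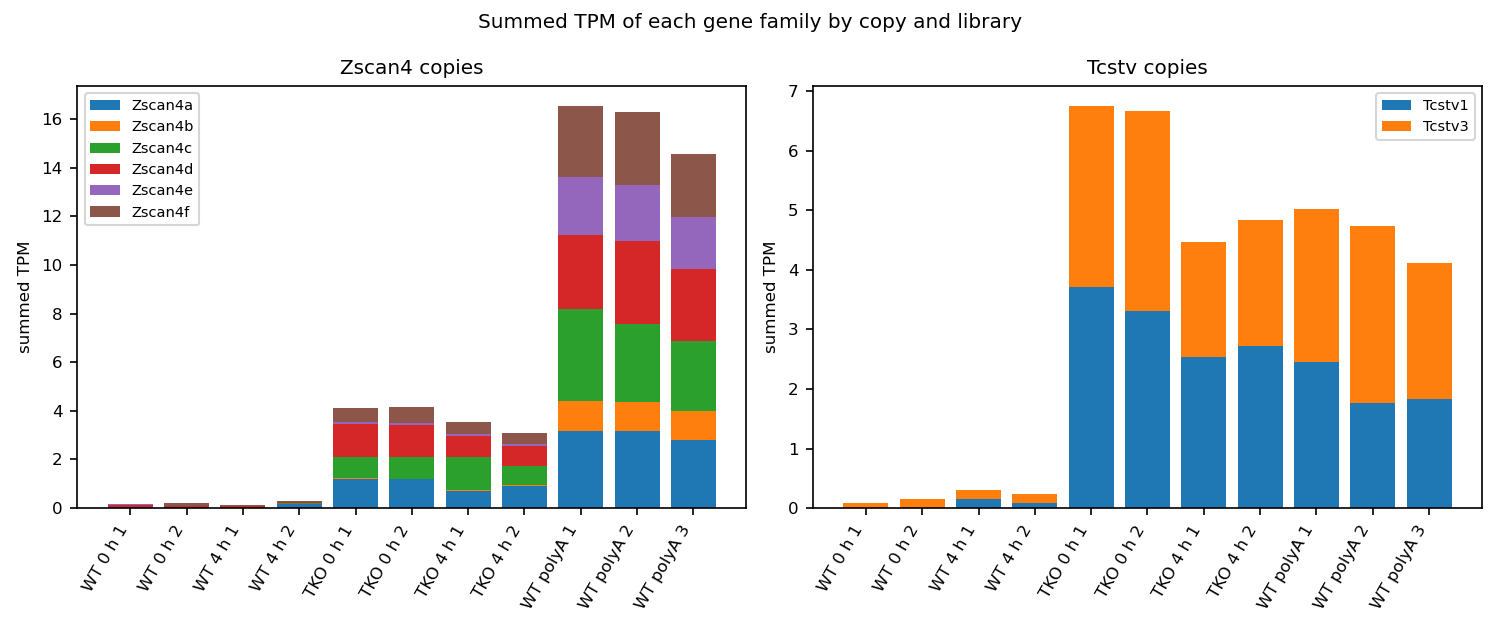
Summed TPM (y axis) of the 6 Zscan4 copies listed in the files (left) and of the 2 Tcstv copies (right) in each library (x axis), with colours for copies. The Zscan4 bars of the polyA libraries exceed those of all TKO libraries and hold Zscan4b and Zscan4e, which are nearly missing from TKO, whereas the Tcstv bars are highest in TKO at 0 h.

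The copies that made up the Zscan4 signal differed between the TKO and the polyA libraries. Over all 6 listed copies, Zscan4e took 12.2% to 12.8% of the reads in the polyA libraries, and 1.54% (95% exact binomial interval 0.187 to 5.45) and 1.74% (0.211 to 6.14) in TKO at 0 h. Zscan4b took 6.28% to 7.08% in polyA and 1.54% (0.187 to 5.45) and 0% (up to 3.16) in TKO at 0 h. The coding sequences of Zscan4b and Zscan4e were identical at 1514 of 1518 bases. Zscan4d took the opposite course at 0 h, with 18.1% to 20.9% of the reads in polyA and 31.5% (23.7 to 40.3) and 29.6% (21.4 to 38.8) in TKO. Zscan4a did so too, with 21.5% to 21.7% in polyA and 30.8% (23.0 to 39.5) and 31.3% (23.0 to 40.6) in TKO. In TKO at 4 h Zscan4d took 22.4% (14.6 to 32.0) and 26.1% (17.3 to 36.6), and these intervals cover its polyA shares. Zscan4a took 21.4% (13.8 to 30.9) and 31.8% (22.3 to 42.6) there. Zscan4b and Zscan4e took at most 2.27% in each TKO library at 4 h. No test was made of these shares, since genotype, RNA selection and depth differ together. Shares of single copies also depend on how reads that match several copies were counted, which is not given. Summed over all 6 copies the change in TKO at 0 h was a read ratio of 21.0 (95% exact interval 11.5 to 42.6).

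Beyond the 7 genes, a list of other genes of the 2-cell state was examined. Of 90 symbols 66 were in the files, and 15 of these had no read in any library. The list includes Zscan4a and Zscan4e, the further Zscan4 copies, so it is not independent of the 7 genes. Of the 12 list genes that passed the filter, 5 were called higher in TKO at 0 h, 4 were called lower and 3 were not called. Over all tested genes 10.4% were called higher and 5.45% lower. The median log2 change of the 12 was 0.31, against -0.02 over all tested genes. Pramel7 and Pramel6, which encode leucine-rich repeat proteins of the PRAME family, had the largest changes. Pramel7 went from 0.231 and 0.261 TPM in WT to 9.79 and 9.47 TPM in TKO (log2 change 2.99, SE 0.094, adjusted p = 1.75e-07, limma). Pramel6 went from 0.65 and 0.405 TPM to 11.2 and 10.7 TPM (log2 change 2.87, SE 0.108, adjusted p = 3.54e-07). Calcoco2, an autophagy receptor, went from 28.7 and 28.3 TPM to 191 and 179 TPM (log2 change 2.56, SE 0.0549, adjusted p = 2.28e-08). Gm5662, at 0.155 and 0.226 TPM in WT and 2.17 and 1.89 TPM in TKO, and Gm5039 were the others called higher. Of the genes called higher, all but Calcoco2 passed the filter only through their TKO libraries, so they had to differ.

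The genes called lower in TKO were Triml2, Hsd17b14, Rpl39l and Tcl1, and all 4 are well above the level of the Zscan4 genes. Triml2 went from 139 and 130 TPM in WT to 55 and 49.4 TPM in TKO (log2 change -1.44, SE 0.0707, adjusted p = 1.4e-06, limma). Hsd17b14, a hydroxysteroid dehydrogenase, had a log2 change of -1.20, Rpl39l, a ribosomal protein gene copy, one of -1.17, and Tcl1, a coactivator of the kinase AKT, one of -0.99. The list genes that passed the filter therefore did not all move one way. The same counts, 5 higher and 4 lower, were found at 4 h, beside 11% and 5.83% of all tested genes.

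Most of the list is at the low end, as the 7 genes are. Of the 51 list genes with a read anywhere, 40 had at most 10 reads over both WT libraries at 0 h, and 23 of those 40 (57.5%) had more than 10 over both TKO libraries at 0 h. Among all 5246 genes that low in WT, 13.9% did. Examples are Dub1a, with 0 and 53 reads over the WT and TKO libraries at 0 h, Gm13119, with 1 and 46, AA792892, with 0 and 27, and Tdpoz4, with 0 and 24. Dux, which encodes a transcription factor that switches on Zscan4, had 1 read in WT and 2 in TKO at 0 h, so its level was not measurable here. With voom on recovered reads 30 of 39 list genes tested were called higher at 0 h and 4 lower, beside 15.2% and 6.76% of all genes. Of the 40 genes low in WT, 30 had more than 10 reads over the 3 polyA libraries, against 32.5% of all genes that low.

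**Figure D4:**
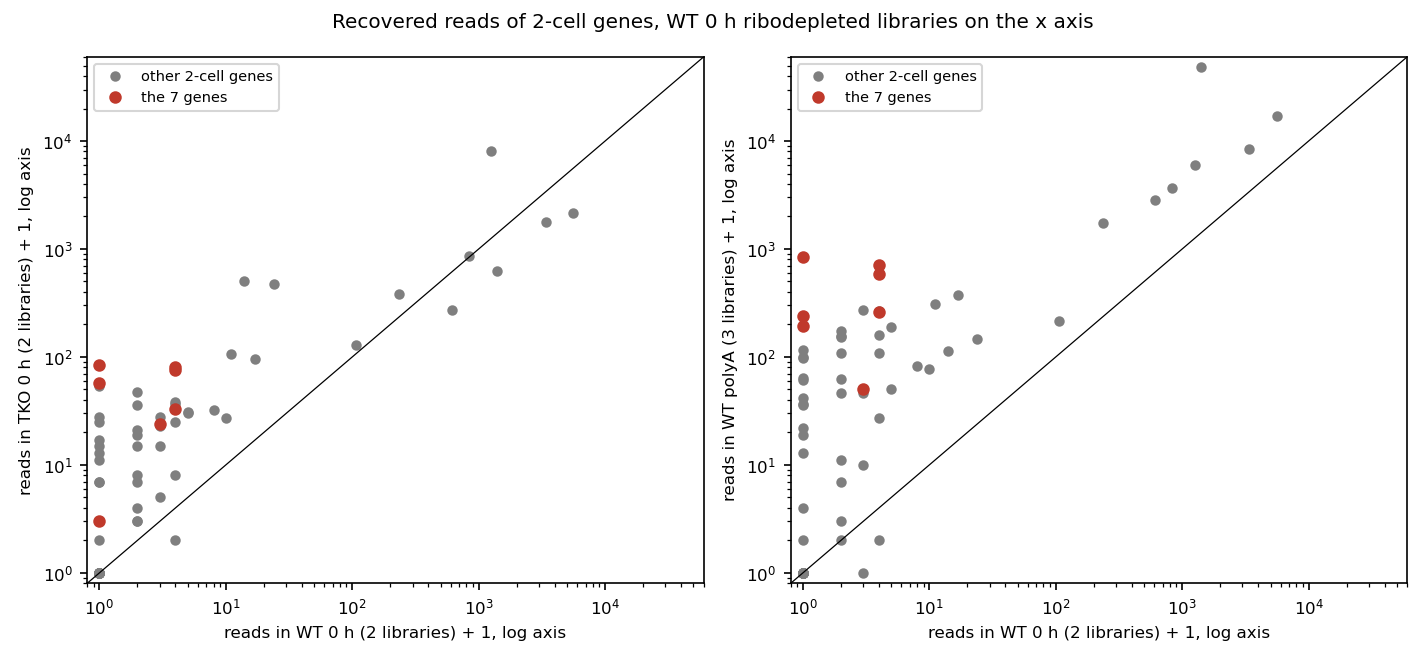
Recovered reads plus 1 (log axes) of 2-cell genes, with the sum over the 2 WT ribodepleted libraries at 0 h on the x axis and the sum over the 2 TKO libraries at 0 h (left) or the 3 deeper WT polyA libraries (right) on the y axis. Red points are the 7 genes, grey points the other list genes without Zscan4a and Zscan4e, which are not drawn, and the line marks equal reads. At the left edge, where WT at 0 h has few or no reads, most points lie above the line in both panels, and Zscan4b is the red point at 2 reads in TKO.

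Genes named as activators or repressors of the 2-cell state moved little. Of the activators, Dppa2 had a log2 change of 0.11 in TKO at 0 h (adjusted p = 0.0752, limma), Dppa4 of -0.35 (adjusted p = 0.000704), Tbx3 of -0.57 (adjusted p = 0.000432) and Smarca5 of -0.11 (adjusted p = 0.0941). None of the 4 passed 1.5-fold, and after quantile normalisation 1 of them was called lower at 0 h. Of 25 repressors 1 was called lower at 0 h and none higher, beside 5.45% of all tested genes called lower and 10.4% higher. The repressor called lower was Ehmt2, which encodes the histone H3 lysine 9 methyltransferase G9a (log2 change -0.72, SE 0.0556, adjusted p = 1.43e-05). Lin28a (log2 change -0.51, adjusted p = 7.53e-05) and Kdm1a, a histone demethylase (-0.43, adjusted p = 0.000194), stayed under 1.5-fold at 0 h. At 4 h Ehmt2 (-0.87) and Lin28a (-0.61) were called lower, beside 5.83% of all tested genes. After quantile normalisation 1 repressor was called lower at 4 h. The median log2 change of the repressors was -0.11 at 0 h, against -0.02 over all tested genes.

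Genes whose pattern over the 8 ribodepleted libraries was most like that of the sums were ranked by Pearson's r of log2(scaled TPM + 1), as a description. For the Zscan4 sum they were Mob1a (r = 0.9992), Trio (0.9990), Inpp5d (0.9985), Amotl1 (0.9984) and Chst15 (0.9981). For the Tcstv sum they were Aebp1 (0.9978), Rpia (0.9962), Osbpl3 (0.9962), Met (0.9962) and Kalrn (0.9962). None of them was in the 2-cell list. The libraries share their genotype groups, and 1352 of 12465 genes had an r above 0.95 with the Zscan4 sum and 1261 with the Tcstv sum.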

How the data were processed

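The 7 genes, the gene lists and the tests were chosen with earlier results of these data known. The deposited values are TPM. The authors filtered reads with AfterQC and Bowtie2, trimmed them with Trimmomatic, aligned them to mm9 with STAR, counted RefSeq genes with HTSeq and converted the counts to TPM. Software versions, the strand setting and the treatment of reads with several matches are not given in the sources used here.

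Whole reads were recovered from the TPM steps for 99.4% of the 19869 genes above 0 (tolerance 1e-05), and for the other 111 genes by a scan over whole-number gene lengths. Each library has 1 file. Size factors (median of ratios) gave scaled TPM, and limma 3.58.1 (R 4.3.3) was run on log2(scaled TPM + 1) (two-sided, variance trend, 1 coefficient per group) for genes with a mean scaled TPM above 1. Genes were called at a Benjamini-Hochberg adjusted p under 0.05 over all tested genes and a change over 1.5-fold. Family sums replaced their members in the same fit. Groups with 2 libraries allow no permutation test to reach 0.05. The study used a count model on raw counts. Here the deposited unit is TPM, so limma on the log scale was used, with limma voom on the recovered reads as an alternative. Ratios of summed reads carry 95% exact conditional (Clopper-Pearson) intervals, with a floor of 3 reads over the group. The fits were tested on simulated data.

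Named genes were all 7 members, the 5 tested 2-cell genes with the largest change in TKO at 0 h, every tested activator, the 3 repressors with the largest change, and the 5 genes most correlated with each sum. Gm5039, Hsd17b14, Rpl39l, Tcl1, Dub1a, Gm13119, AA792892, Tdpoz4 and Dux were named after their values were seen. Alternatives were deposited TPM, quantile normalisation, a replicate block, offsets of 0.1 or 5 TPM before logs, other filters, no variance trend, no fold threshold, voom on recovered reads and leaving out each library. Voom with at least 10 reads and the sum over 6 Zscan4 copies were added after the data were seen.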

Additional observations from a re-analysis of the deposited data

Results flagged for a closer look

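Tcstv1, Tcstv3 and their sum lay, after scaling, higher at 4 h than at 0 h in every WT library and lower in every TKO library. The difference of the changes (TKO minus WT, log2 scale) was -0.42 for Tcstv1, -0.47 for Tcstv3 and -0.59 for the Tcstv sum, and limma's test of this interaction gave adjusted p-values of 0.662, 0.662 and 0.651. The WT values rest on 0 to 4 reads per library.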

How the results depend on the processing

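In TKO against WT, the Zscan4 and Tcstv sums were higher under all alternatives run at both times. A pseudocount of 5 TPM took the Zscan4 sum below 1.5-fold (0.58 at 0 h, 0.52 at 4 h), took the members called higher at 4 h from 2 to 0, and took those called higher in polyA from 5 to 3. Members called higher rose to 4 at each time with every gene above 0 in at least 2 libraries and to 6 with voom on at least 10 reads. At a mean scaled TPM above 5 no member was tested, so that filter gives no count of members. In WT, 4 h against 0 h, a pseudocount of 0.1 TPM gave 0.90 for the Tcstv sum (adjusted p = 0.0207, limma) and called 1 member, Tcstv1, as did voom on the filtered genes (log2 change 2.06), from 3 reads against 0. Voom on at least 10 reads turned the sign of the uncalled change of Zscan4f in WT (to 0.29) and of the uncalled interaction of Zscan4c (to -1.76). The cause of these differences was not tested.

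Leaving out 1 library at a time, with the lone library assumed to vary like the other groups, gave 1.66 to 1.77 for the Zscan4 sum and 2.63 to 2.74 for the Tcstv sum in TKO at 0 h, and 1.47 to 1.69 and 2.02 to 2.18 at 4 h. For 4 h against 0 h the Zscan4 sum ranged from -0.0276 to 0.0766 in WT, and its sign turned (-0.0276) without replicate 1 of WT at 0 h. For 2-cell list genes called higher, leaving out replicate 1 of TKO at 0 h or of TKO at 4 h gave 3 instead of 5 at each time, a mean scaled TPM above 5 gave 1, a pseudocount of 5 TPM 3, no fold threshold 8 at 4 h, and every gene above 0 in at least 2 libraries 13. Deposited TPM without size factors moved the median of all tested genes by up to 0.14 (TKO against WT at 4 h).

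Same-numbered libraries showed no strong shared shift (correlations of deviations between -0.0443 and 0.119). This cannot tell whether they were paired by culture or day, which the labels do not say. In a fit with a replicate block the Zscan4 sum at 0 h kept its change of 1.72 (adjusted p = 2.46e-05, limma), and no call on a sum or count of members changed. Depth limits all WT ribodepleted values, where no member had more than 3 reads in a library.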
